A study of Caenorhabditis elegans with 2 samples.

Results

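The genes described here encode 10 structural and signalling proteins of the Caenorhabditis elegans kinetochore and centromere: hcp-3, hcp-4, knl-2, knl-1, knl-3, ndc-80, him-10, hcp-1, hcp-2 and bub-1. They were chosen by name, with earlier results of these data known, as 10 of the 19973 protein-coding genes in the annotation. Each was searched for binding sites of MADF-8, a protein with a MADF domain. A gene was given a site when the summit of a site lay from 1000 bp upstream of the gene start to the gene end. The data are ChIP-seq site lists from 2 biological replicates, which form 1 group with no second condition. Whole young adult worms of strain RW12322 carried st12322, in which TY1, eGFP and 3xFLAG tags had been inserted by CRISPR at madf-8 on chromosome III. The worms had been synchronised by starving L1 larvae after bleaching and were 64 h old. Chromatin was sonicated and, per the sample description, precipitated with an antibody against GFP, although the antibody label reads madf-8. The lists therefore report the tagged protein in 1 strain and are a sum over all tissues of the animal, germline and soma together. Library depth is unknown, because only site lists were used.

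The kinetochore is the protein assembly that joins chromosomes to spindle microtubules. In C. elegans the chromosomes are holocentric, so the centromere and the kinetochore run along the whole length of each mitotic chromosome. Nucleosomes holding the centromeric histone CENP-A form the base, CENP-C bridges to the outer layer, and the KMN network (KNL-1, the MIS12 complex and the NDC80 complex) binds the microtubules. The germline and the early embryos of an adult worm are its main sites of cell division.

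Sites were found at 8 of the 10 genes (80%, 95% Wilson interval 49.0% to 94.3% over genes, counting error only). Over all protein-coding genes, 2007 of 19973 had a site by the same rule, or 10.05%. Because the 10 genes were chosen with earlier results of these data known, this contrast is a description and was not tested. All 10 genes are autosomal, and 11.4% of the 17242 autosomal protein-coding genes had a site. The genes with a site were hcp-3 and hcp-4 of the inner kinetochore, knl-1, knl-3, ndc-80 and him-10 of the KMN network, and hcp-1 and bub-1 of the outer, checkpoint-linked layer. The genes without one were knl-2 and hcp-2. By the summit rule each of the 8 genes had 1 site, and no site served a pair of these genes. All 8 sites carried the top score of 1000 on the scale of the irreproducible discovery rate (IDR), as did 1746 of all 1972 sites (88.5%). Counting any overlap of a site with the window gave 9 sites at the same 8 genes. The added site, at 9615086 to 9615361 on chromosome III with a signal of 125.3, overlaps the end of hcp-3.

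All 8 summits lay upstream of the gene start, by 99 to 690 bp (median 269 bp), and none lay within the gene. Over all genes, 1673 of 2255 pairs of a gene and a site (74.2%) had the summit upstream, with a median distance of 279 bp. The deposited signal of the 8 sites, which is the authors' value per site and is used here only to rank sites within a list, ran from 97.6 to 2294.05 with a median of 332.48. The median of all 1972 sites was 119.66, and 5 of the 8 sites were above it. The 8 sites thus covered much of the range of the list, with 3 below its median.

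**Figure D1:**
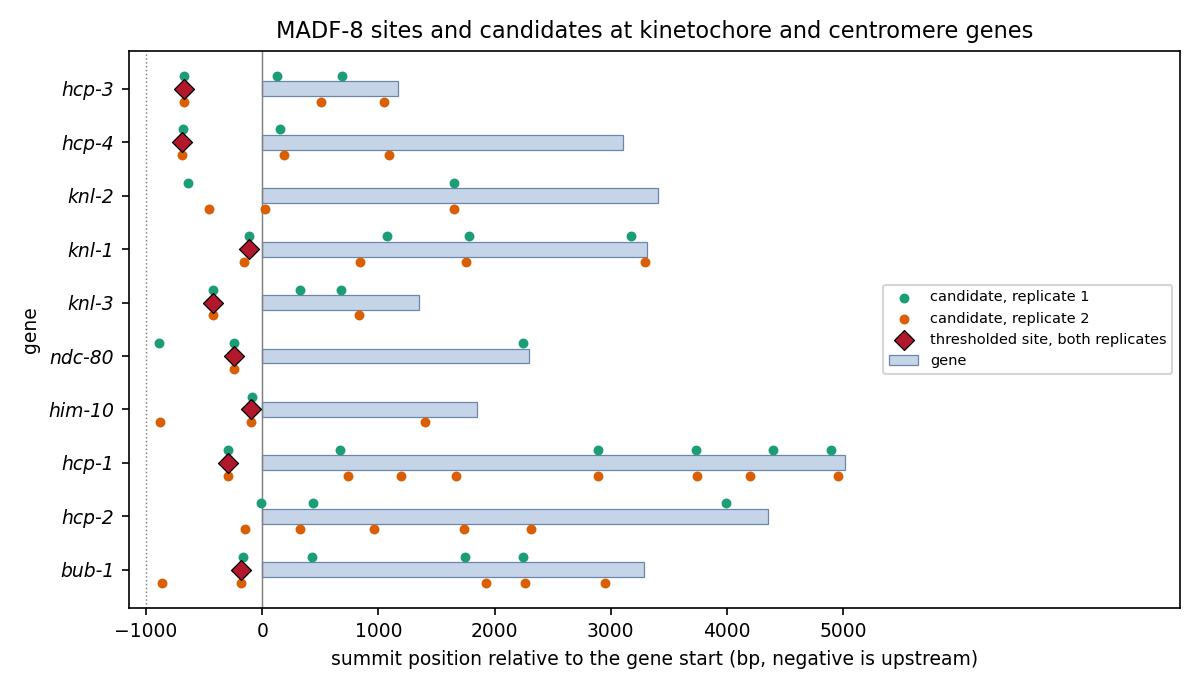
Position of MADF-8 summits (horizontal axis, bp from the gene start, negative upstream) at the 10 genes, with each gene drawn as a bar from its start to its end. Diamonds are the thresholded sites of both replicates, and small points above and below each bar are the ranked candidates of replicate 1 and replicate 2 from 1000 bp upstream to the gene end; all 8 diamonds are 99 to 690 bp upstream, and knl-2 and hcp-2 have small points only.

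**Figure D2:**
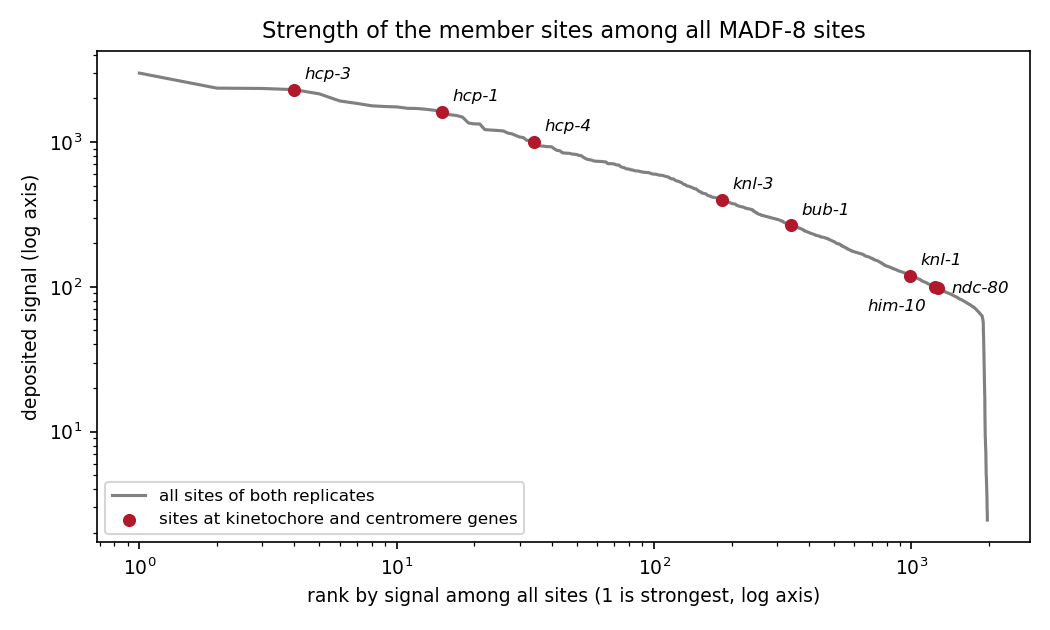
Deposited signal (vertical log axis, the authors' value per site) against rank by signal (horizontal log axis) for all 1972 sites, with the 8 sites at kinetochore and centromere genes as labelled points. The sites at hcp-3, hcp-1 and hcp-4 rank 4, 15 and 34, and those at knl-1, ndc-80 and him-10 rank 990, 1236 and 1266.

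Sequence around the summit is shown for 5 of the genes, since these sites span the strongest and the weakest of the set, together with that of cpar-1, which encodes a second CENP-A protein. Each stretch is read 5′ to 3′ on the strand of the gene from RefSeq's copy of WBcel235, in lower case. Capitals mark TTTGAA or its reverse complement TTCAAA where the whole word lies within 50 bp of the summit or, for cpar-1, runs just past that limit. The summit is base 76 of each stretch of 151 bases. The stretch for him-10 has 76 bases and begins at the summit, because the neighbouring gene begins 1 bp from the summit on the other side. The stretches are, on ce11, chrIII:9617066-9617216 (minus strand) for hcp-3, chrV:6593825-6593975 for hcp-1, chrIII:8250443-8250593 for knl-1, chrIV:10085818-10085968 for ndc-80, chrIII:5803161-5803236 for him-10 and chrIII:9433700-9433850 for cpar-1, all on the plus strand but the first.
hcp-3: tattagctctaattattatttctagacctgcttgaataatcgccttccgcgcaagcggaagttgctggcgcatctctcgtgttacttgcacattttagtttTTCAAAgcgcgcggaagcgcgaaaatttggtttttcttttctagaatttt
cpar-1: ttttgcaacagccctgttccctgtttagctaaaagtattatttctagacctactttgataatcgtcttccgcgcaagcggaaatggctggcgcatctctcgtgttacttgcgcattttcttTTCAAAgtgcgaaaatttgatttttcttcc
hcp-1: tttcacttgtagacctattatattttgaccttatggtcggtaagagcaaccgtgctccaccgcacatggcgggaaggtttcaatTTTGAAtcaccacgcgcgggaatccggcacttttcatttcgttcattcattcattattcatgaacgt
knl-1: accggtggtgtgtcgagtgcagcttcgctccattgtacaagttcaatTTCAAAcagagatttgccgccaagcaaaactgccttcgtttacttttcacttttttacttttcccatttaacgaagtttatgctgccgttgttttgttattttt
ndc-80: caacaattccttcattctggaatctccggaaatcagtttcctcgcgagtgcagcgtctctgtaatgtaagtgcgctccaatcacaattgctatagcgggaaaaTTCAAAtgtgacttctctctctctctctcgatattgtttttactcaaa
him-10: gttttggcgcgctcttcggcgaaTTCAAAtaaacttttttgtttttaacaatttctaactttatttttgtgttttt

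The strongest site was at hcp-3 (WBGene00001831), which encodes CENP-A, the histone H3 variant of centromeric nucleosomes. The gene spans 9615306 to 9616470 on the minus strand of chromosome III, and its site covers 9616963 to 9617280 with the summit at 9617141, 671 bp upstream of the gene start. Its signal was 971.39 in replicate 1, 1334.93 in replicate 2 and 2294.05 in the list of both replicates, where it ranked 4 of 1972. It ranked 5 of 1347 sites in replicate 1 and 2 of 1608 in replicate 2, and both replicates placed the summit on the same base. The site lies outside protein-coding genes, in a gap of 3240 bp between hcp-3 and hlh-11 on the opposite strand. The start of hlh-11 is 2570 bp from the summit, so no other protein-coding gene had this summit in its window.

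The paralog cpar-1, a second CENP-A gene, also had a site, 282 bp upstream of its start. The signal was 1208.99 in the list of both replicates, rank 23, and each replicate's own list held the site. A local alignment of the site sequences of hcp-3 and cpar-1 covered 195 columns, of which 156 were identical (80%) and 16 were gaps, with the longest shared run at 26 bases. Among the 28 pairs of sites of the 8 genes, the longest shared run was 7 to 11 bases. The hcp-3 and cpar-1 sites thus share sequence that the other sites do not, and in the printed pair it runs through the capitals. Every 31-base word of the 8 sites and of the cpar-1 site occurred at 1 place in the genome.

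The second inner kinetochore gene, hcp-4 (WBGene00001832), encodes CENP-C, which links CENP-A chromatin to the outer kinetochore. Its site on chromosome I spans 3866505 to 3866751, with the summit at 3866628, 690 bp upstream of the start, the farthest of the 8. The signal was 437.75 in replicate 1, 564.2 in replicate 2 and 1001.3 in the list of both replicates, and the site ranked 34 in all 3 lists. It lies in a gap of 1602 bp between hcp-4 and pgk-1, which is transcribed away from it and encodes a phosphoglycerate kinase. The summit is 913 bp from the start of pgk-1, so it fell in the window of both genes.

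The gene knl-2 (WBGene00019432, chromosome I, 6460878 to 6464286), whose product is the M18BP1 counterpart needed to load CENP-A, had no site in any thresholded list. The summit nearest to the gene start in the list of both replicates lay 11304 bp downstream of that start, beyond the gene end, with a signal of 104.81. The strongest candidate within the window was in an intron, 1656 bp downstream of the gene start, with a signal of 53.2 and a score of 447 in the ranked list of the pair. Each replicate had this candidate, with summits 3 bp apart. Its signal was 23.29 (IDR 0.673) in replicate 1 and 30.04 (IDR 0.167) in replicate 2. Of the 17966 protein-coding genes without a site, 616 (3.43%) had a candidate scoring at least as high.

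All 4 genes of the KMN network in the set had a site, and the strongest of these was at knl-3. The gene knl-3 (WBGene00020392) encodes the DSN1 counterpart of the MIS12 complex, which joins the inner kinetochore to the microtubule-binding proteins. It lies on chromosome V at 1869213 to 1870558, and its site spans 1868717 to 1868890 with the summit 425 bp upstream of the gene start. The signal was 170.98 in replicate 1, 225.77 in replicate 2 and 398.02 in the list of both replicates, at ranks 191, 179 and 184. The summit lies in the 5′ UTR of T10B5.3 on the opposite strand, 994 bp inside that gene, which overlaps knl-3 by 570 bp. It is the single summit of the 8 inside a protein-coding gene, and its sequence is not printed here.

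The other 3 KMN sites were the weakest of the set. KNL-1 (WBGene00002231) is the scaffold of the network and docks checkpoint proteins and a protein phosphatase. Its gene spans 8250632 to 8253943 on chromosome III, with a site at 8250380 to 8250655 and the summit 114 bp upstream of the start. The signal was 57.31 in replicate 1, 60.48 in replicate 2 and 119.2 in the list of both replicates, where it ranked 990, just below the median of all sites. The upstream gene, C02F5.2, is on the same strand and ends 434 bp before knl-1.

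NDC-80 (WBGene00003576) and HIM-10 (WBGene00001869), the NUF2 counterpart, form the microtubule-binding arm of the NDC80 complex. The ndc-80 site, at 10085755 to 10086030 on chromosome IV, had its summit 244 bp upstream of the gene start. Its signal was 49.63 in replicate 1, 49.78 in replicate 2 and 99.96 in the list of both replicates, rank 1236, with the same summit base in each. The collagen gene col-2 is transcribed in the opposite direction from 442 bp beyond the summit and shares the window. The him-10 site, at 5803023 to 5803298 on chromosome III, had its summit 99 bp upstream of the gene start, the nearest of the 8. Its signal was 46.13 in replicate 1, 51.05 in replicate 2 and 97.6 in the list of both replicates, rank 1266. The DNA polymerase gene polq-1 begins 1 bp from this summit, on the opposite strand and only 99 bp from him-10, so position does not separate a polq-1 site from a him-10 site.

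In the outer layer, hcp-1 (WBGene00001829) encodes a CENP-F-like protein that recruits the microtubule stabiliser CLS-2. The gene spans 6594194 to 6599208 on chromosome V, and its site covers 6593750 to 6594035 with the summit 294 bp upstream of the start. The signal was 671.27 in replicate 1, 948.45 in replicate 2 and 1615.44 in the list of both replicates, at ranks 17, 13 and 15. The site was second only to that of hcp-3 among the 8, and the upstream gene, ZK1055.2, ends 449 bp before hcp-1 on the same strand.

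Its close relative hcp-2 (WBGene00001830, chromosome V, 9645859 to 9650211), which acts together with hcp-1 at kinetochores, had no site. The summit nearest to the gene start lay 57912 bp downstream of it, beyond the gene end, with a signal of 108.08. The ranked list of the pair held a candidate 150 bp upstream of hcp-2 with a signal of 50.8 and a score of 516, under the lowest score of 830 in the thresholded lists. Replicate 2 ranked a candidate at nearly the same place, 152 bp upstream, with a signal of 36.76 and an IDR of 0.217. In replicate 1 the strongest candidate of the window, with a signal of 16.23, lay 435 bp downstream of the start instead. Among the genes without a site, 464 (2.58%) had a candidate scoring at least as high as that of hcp-2. The candidate lies in the gap of 263 bp between hcp-2 and atl-1, which is transcribed away from it.

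The gene bub-1 (WBGene00000275) encodes the kinase that docks on KNL-1 and takes part in the spindle assembly checkpoint. Its site on chromosome I, at 7251706 to 7251796, is the narrowest of the 8, at 91 bp against a median of 276 bp over all sites, and the summit is 181 bp upstream of the start. The signal was 123.0 in replicate 1, 144.98 in replicate 2 and 266.94 in the list of both replicates, at ranks 326, 355 and 340. The synthetic multivulva gene lin-61 starts 478 bp from the summit on the opposite strand and had the same summit in its window.

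**Figure D3:**
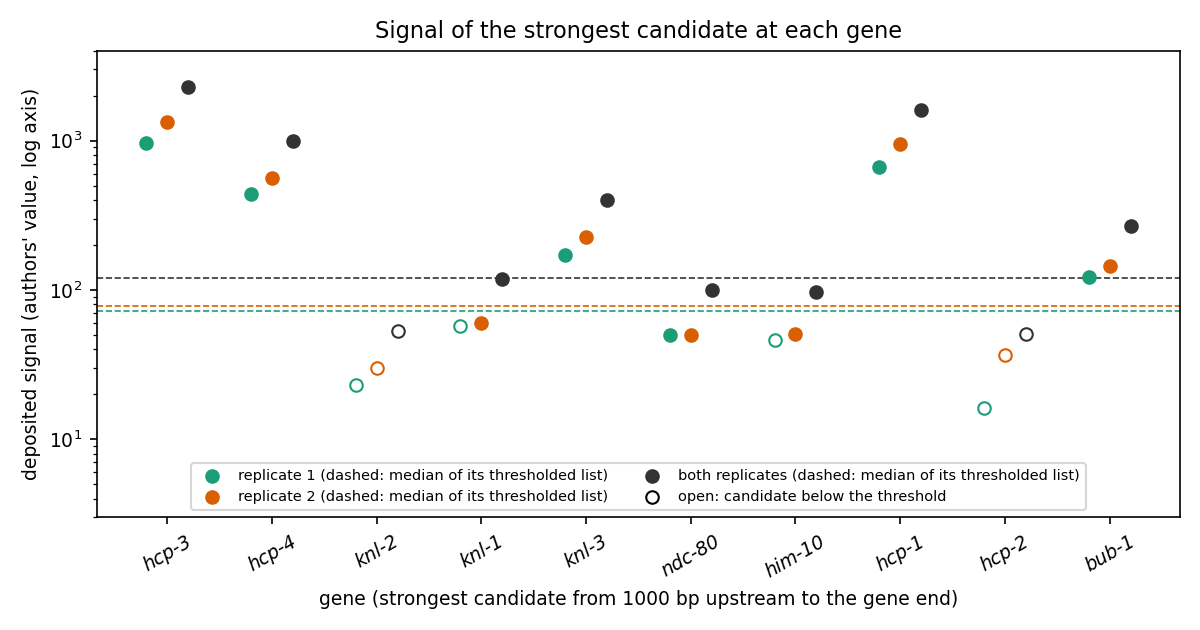
Deposited signal (vertical log axis, the authors' value) of the strongest candidate of each gene in replicate 1, replicate 2 and the list of both replicates, with open circles for candidates below the IDR threshold and dashed lines at the medians of the thresholded lists. The points of hcp-3, hcp-1, hcp-4, knl-3 and bub-1 are filled and above the medians, those of knl-1, ndc-80 and him-10 are below them, and those of knl-2 and hcp-2 are open.

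The replicates differed in which of the weaker sites passed the threshold. Replicate 2 alone had a site at the same 8 genes, against 8.72% of all protein-coding genes. Replicate 1 alone had a site at 6, against 7.36%, and the 2 genes it lacked were knl-1 and him-10. A site in the thresholded list of replicate 1 and also in that of replicate 2 was found at 6 of the 10 genes, and at 6.50% of all protein-coding genes.

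At knl-1 and him-10, replicate 1 did have a candidate, below the threshold. Among the ranked candidates by signal, that of knl-1 was 1008 of 40115 in replicate 1 and 1160 of 31379 in replicate 2, and its IDR was 0.783 in replicate 1 and 0.00215 in replicate 2. In the same lists the him-10 candidate was 1348 in replicate 1 and 1428 in replicate 2, with an IDR of 0.755 and 0.00103. Both candidates thus stood at a higher rank by signal in replicate 1, where their IDR was above the threshold, than in replicate 2, where it was below. Of the 1347 strongest candidates of replicate 1 by signal, 77 (5.72%) had a score under 830, as did 111 of the 1608 strongest of replicate 2 (6.90%).

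Within each replicate the signal fell in the order hcp-3, hcp-1, hcp-4, knl-3, bub-1, knl-1, and ndc-80 and him-10 came last in opposite order. The summits of the 8 sites differed between replicates by 0 to 50 bp, with a median of 6 bp. The widest gap was at knl-1. The deposited signal has no error per site and its scaling is not given in the sources used here, so neighbours in this order could be compared only by rank.

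Candidates below the threshold were common at all genes. All 10 had at least 1 candidate in the ranked list of each replicate, and so did 72.8% of all protein-coding genes in replicate 1 and 65.5% in replicate 2. The thresholded list of replicate 1 held 1347 sites against 40115 candidates in all, and that of replicate 2 held 1608 against 31379. Of the 31 candidates that replicate 1 had at the 10 genes, 25 were below the threshold, as were 29 of 37 in replicate 2. Leaving out knl-1 and him-10, those below the threshold had signals of 12.7 to 27.47 in replicate 1 and 12.14 to 36.76 in replicate 2, under the signal of every site at these genes in the same replicate.

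The position of the sites sets which genes they can be assigned to. Of the 8 summits, 5 also fell in the window of a neighbour on the opposite strand, namely pgk-1, T10B5.3, col-2, polq-1 and lin-61. The other 3, at hcp-3, knl-1 and hcp-1, fell in the window of no other protein-coding gene. Non-coding genes were given no window. A gene of a small non-coding RNA (piRNA) starts 855 bp from the summit at hcp-3, and another starts 410 bp from that at ndc-80. Over all sites with at least 1 gene, 582 of 1639 (35.5%) fell in the windows of 2 or more. With each site given only to the gene with the nearest start, 7 of the 10 genes kept theirs, against 7.12% of all protein-coding genes, and him-10 lost its site to polq-1. With a narrower promoter window (up to 500 bp before the gene start and 100 bp after it), 6 kept theirs, against 6.51%. The 2 lost were hcp-3 and hcp-4, whose strong sites lie beyond 500 bp.

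The bases up to 50 bp from each summit were searched for 4 words, read in either orientation. TTTGAA is the core of the cell cycle genes homology region (CHR), a promoter element of cell cycle genes in mammals, and GCGCGAAA is an E2F-type element. AAGGCGCA and GCGAGACC were taken because they are frequent in these sites as a whole. TTTGAA was found at 7 of the 8 sites, against 488 of all 1972 sites (24.7%). It was also in 288 of the 1046 sites in a promoter (27.5%), and in 29.8% of windows of 101 bp centred 200 bp upstream of the start of every protein-coding gene. At the remaining gene, knl-3, its centre was 48.5 bp from the summit, so that it ran past the 50 bp limit. Within 100 bp all 8 sites held it, against 44.4% of all sites and 50.3% of promoter windows of that wider size.

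At the 7 sites the centre of the nearest TTTGAA was 11.5 to 30.5 bp from the summit, with a median of 25.5 bp. It lay on the side of the gene at 5 sites and on the far side at hcp-4 and knl-1. It read as TTCAAA on the strand of the gene at 6 sites and as TTTGAA at hcp-1. The capitals in the printed sequences show this for all but hcp-4 and bub-1, whose sequences are not printed. At cpar-1 the word was 48.5 bp from the summit, again on the side of the gene.

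**Figure D4:**
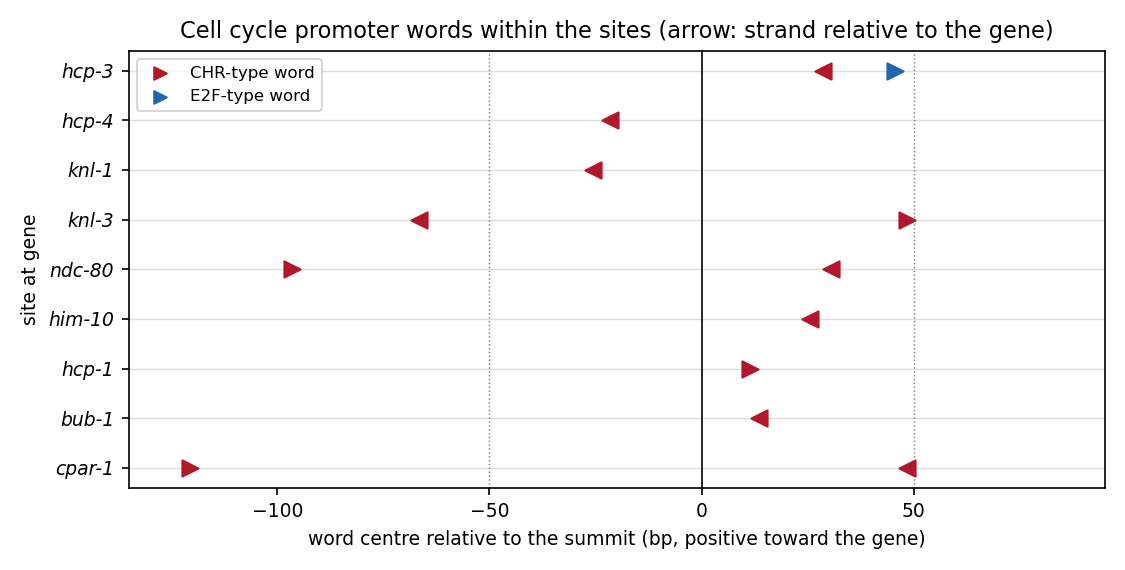
Distance of the CHR-type word (TTTGAA) and the E2F-type word (GCGCGAAA) from the summit (horizontal axis, bp, positive toward the gene) at the 8 sites and at cpar-1; arrows give the strand relative to the gene and dotted lines mark 50 bp. The CHR-type words nearest to the summit lie within 30.5 bp at 7 sites, and the E2F-type word appears at hcp-3.

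The other words were each found at 1 of these sites or at none. AAGGCGCA and GCGAGACC were in none of the 8, against 12.1% and 8.82% of all sites and 0.776% and 0.576% of the promoter windows. Either word or both were at 18.3% of all sites, and the difference from these 8 sites was not tested. GCGCGAAA was at hcp-3 alone, against 6.44% of all sites and 0.355% of the promoter windows. It lies just after the capitals in the printed hcp-3 sequence. A match describes the letters and is not a test of which factor binds them. The GC content within 50 bp of the summit was 36.6% to 52.5% at the 8 sites (median 47.0%), against a median of 43.6% over all sites, and its part in the word counts was not tested.

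A wider list of 34 other genes of kinetochore function held 21 with a site (61.8%, Wilson interval 45.0% to 76.1%). The share over all protein-coding genes, 10.05%, is the background to this count and to each smaller list below. The 22 sites of these 21 genes were upstream of the gene start in 18 cases (81.8%). That is near the 74.2% over all pairs of a gene and a site. The remaining genes of KMN subunits and KNL-binding proteins stood at 1 of 6. That gene was kbp-4 of the NDC80 complex, with a signal of 211.3, and mis-12, kbp-1, kbp-2, kbp-3 and kbp-5 had none. The interval of that 1 of 6 (16.7%, Wilson interval 3.0% to 56.4%) holds the 10.05% of all protein-coding genes. All 4 KMN genes in the set had a site, but both lists were chosen with earlier results of these data known. The difference between them was not tested.

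Both genes of the microtubule-tracking SKA complex, ska-1 and ska-3, had a site, with signals of 135.64 and 220.23. So did the genes of the RZZ complex and its dynein adaptor, which form the corona of unattached kinetochores. Their signals were 610.54 at rod-1, 403.32 at czw-1, 172.57 at zwl-1 and 102.94 at spdl-1, and the spdl-1 site was in neither replicate's own list. Of 7 checkpoint genes, 4 had a site, with signals of 399.22 at bub-3, 167.28 at mdf-2 (the MAD2 counterpart), 160.13 at fzy-1 (the CDC20 counterpart) and 125.86 at pch-2. The checkpoint genes mdf-1, san-1 and cmt-1 had none.

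Among the chromatin and motor partners, lin-53, a histone chaperone that acts with CENP-A, had a site with a signal of 423.75. Of 13 motors, kinases, phosphatases and other partners, 8 had one. The strongest was at klp-7, the microtubule-depolymerising kinesin of centromeres, with a signal of 961.06 inside the gene, 1493 bp downstream of its start. The site of plk-1, the mitotic Polo kinase, had a signal of 454.77, and that of hcp-6, a condensin II subunit, 182.04. At cls-2, whose product HCP-1 recruits, the signal was 101.07. The other sites were at klp-19 (122.88 and 77.74), dhc-1 (174.38), plk-2 (152.84) and gsp-2 (82.66). As at spdl-1, neither replicate's own list held a site at gsp-2, and at klp-19 and pch-2 that of replicate 2 alone did.

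**Figure D5:**
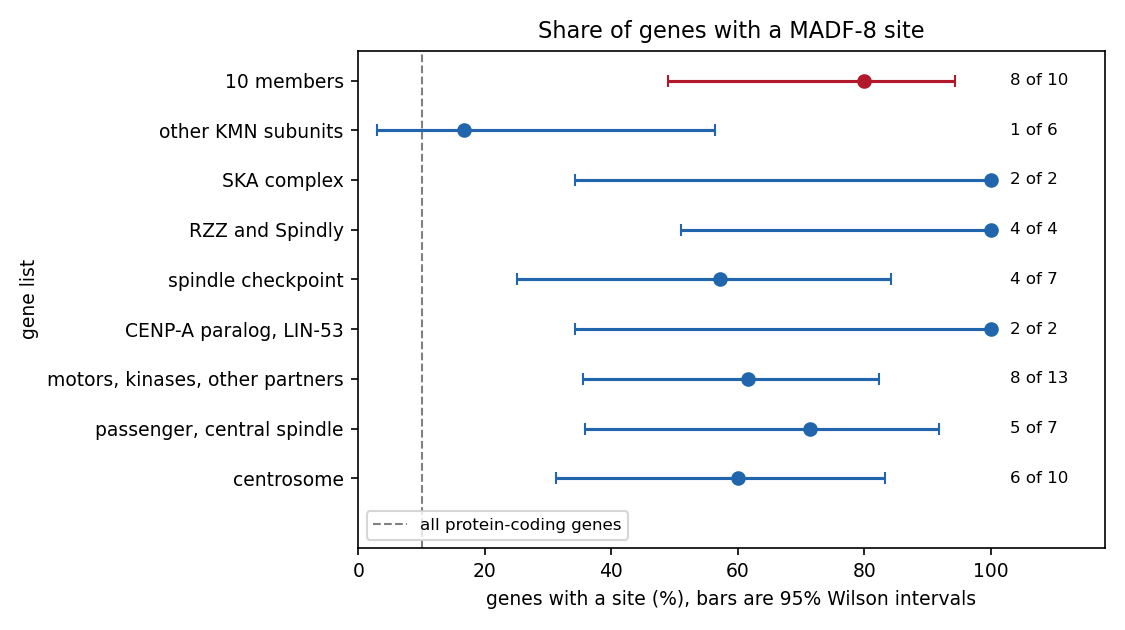
Share of genes with a site (horizontal axis, percent, with 95% Wilson intervals) for the 10 genes and for other lists of kinetochore and mitotic genes, with the counts at the right and a dashed line at the share of all protein-coding genes. The 10 genes stand at 80%, the other KMN subunits at 1 of 6, and the intervals of the small lists are wide.

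The chromosomal passenger and central spindle genes stood at 5 of 7 (71.4%) and the centrosome genes at 6 of 10 (60%). Over all protein-coding genes the share was 10.05%, and no difference between these lists and the kinetochore genes was tested. TTTGAA was within 50 bp of the summit at 8 of the 22 sites of the other kinetochore genes, at 1 of 6 passenger sites and at 2 of 7 centrosome sites. The 8 were the sites of bub-3, cls-2, hcp-6, kbp-4, klp-19, lin-53, ska-1 and spdl-1. The share at the 10 genes' own sites, 7 of 8, was the highest of these 4 counts. These differences were not tested, and the members of every list were chosen with earlier results of these data known.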

How the data were processed

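Sites came from thresholded and ranked IDR lists of each replicate and of the pair, which the authors made from the alignments of 1 or both replicates with a control, per the file descriptions. That control was not analysed here. No aligner, peak caller or scaling of the signal is named (not given in the sources used here). Both the deposited signal and the deposited score are the authors' values per site. The score is the scaled IDR score, at most 1000, and its lowest thresholded value of 830 corresponds to an IDR of 0.00999. IDR values were computed from the −log10 IDR that the authors deposited in the ranked lists. The ranked lists of the pair hold 16 columns of per-replicate values in all, without a sample name, and these columns were not used.

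Results rest on the thresholded list of the pair, on ce11. Summits were the deposited offsets. Genes came from Ensembl release 115 on WBcel235, and 99.9% of 31805 annotated start codons read ATG in the RefSeq sequence of that assembly. Wilson intervals cover counting error over genes only. The site sequences were aligned with Biopython 1.88 (match 2, mismatch -2, gap opening -5, gap extension -1). Figures and tables were made with matplotlib 3.10.9 and pandas 2.3.3, under Python 3.11.15, with numpy 2.4.6 and scipy 1.17.1. The linking of sites to genes was checked on simulated sites.

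The members, gene lists and words were chosen with earlier results of these data known. No test was made, because there is 1 group. The genes named are the 10 members, other kinetochore genes with a site, cpar-1, the nearest neighbours of each site and any gene whose window holds it. Neighbours of candidates below the threshold, the genes without a site in the wider lists, and bounds of the printed stretches were added after their values were seen. Alternatives covered the site set, strength, window, linking and word window.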

Additional observations from a re-analysis of the deposited data

How the results depend on the processing

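Of 65 alternative values, 57 stayed within the spread allowed and 8 moved. That spread was wide for small counts. A fall from 8 to 6 genes with a site counted as staying, without replicate 2, with 500 bp upstream and with either promoter window. So did a fall from 7 to 5 sites with a searched word without replicate 2. With the stronger 50% of sites by signal, the count of genes with a site fell to 5, with 5 sites, the median signal percentile rose to 98.3 from 86.8, and 1150 protein-coding genes had a site in place of 2007. The genes lost were knl-1, ndc-80 and him-10. With 500 bp upstream to the gene end, and with either promoter window, the percentile was 66.3, because hcp-3 and hcp-4 drop out. The promoter window at the gene start gave 1301 protein-coding genes. Leaving out 1 replicate gave 6 to 8 genes of the 10, a percentile of 83.4 to 91.7, 17 to 19 of the 34 other kinetochore genes, 1471 to 1742 protein-coding genes and 5 to 8 sites with a searched word. The conservative list, a window of 2000 bp, a score of 1000 alone, and the stretch from 1000 bp upstream to the gene start each gave 8 genes. In the same order, these settings gave 2023, 2398, 1837 and 1575 protein-coding genes with a site, in place of 2007. The count of 8 thus stayed the same while the count over all genes changed. The last 2 of these settings were chosen after seeing the data. No paired analysis was possible because there is 1 group. The lists give no depth and no signal at places without a candidate, so the absence of a site at knl-2 and hcp-2 says only that none passed the threshold.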

Other observations

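A further word, GCGGGAA, was searched for only after the site sequences had been seen, and it carries no weight as support. It was within 50 bp of the summit at 3 of the 8 sites, those of hcp-1, hcp-4 and ndc-80, against 8.37% of all sites and 1.25% of the promoter windows. At the sites of the 34 other kinetochore genes it was present at 1 of 22. The candidate upstream of hcp-2, which did not pass the threshold, held GCGCGAAA within 50 bp of its summit and did not hold TTTGAA.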
